A study of Mus musculus with 6 samples.

Results

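The endoplasmic reticulum (ER) chaperones described here are 10 genes chosen by symbol: Hspa5, Hsp90b1, Calr, Canx, Pdia3, Pdia4, Pdia6, P4hb, Serpinh1 and Xbp1. They are 10 of the 21837 gene symbols in the deposited RefSeq table, and all 10 were found in it. Where a gene had more than 1 entry, the entry with the highest mean was used. The 10 genes were also among the 6050 coding genes with a mean above 100 deposited units, which serve as the background throughout, and the lowest level of any of them in any library was 220 units. RNA came from primary wildtype mouse embryonic fibroblasts (MEFs) of strain C57BL/6x 129, grown from littermate embryos of 13.5 days and passaged 4 times. One library was untreated, and the others came from cells given 20 ng/ml of the cytokine TNFα for 1.5, 6 or 24 hr. The untreated cells also gave 1 library of chromatin immunoprecipitation for H3K4me3, a histone mark of active promoters, with an input library. There was 1 library per time, so no difference between times has a replicate check, no test was made, and the 3 comparisons share the untreated library. One label field of the 24 hr library holds ChIP text, whereas its title, treatment and source type describe RNA.

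Proteins that enter the ER fold there with the help of chaperones. Hspa5 (BiP), the Hsp70 of the ER, and Hsp90b1 (Grp94), its Hsp90, bind unfolded chains, calreticulin and calnexin hold glycoproteins by their sugars, and the protein disulfide isomerases form and rearrange disulfide bonds. Serpinh1 (Hsp47) is a chaperone of collagen, a main product of fibroblasts. When unfolded protein accumulates, the unfolded protein response (UPR) raises the transcription of many ER chaperone genes through ATF6 and XBP1. These factors act at the ER stress response element (ERSE), a CCAAT box and a CCACG box held 9 bases apart. TNFα acts mainly through NF-κB, which binds kappaB motifs.

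The 300 bases around each start, 250 before it and 50 after it, were taken from RefSeq promoters (GRCm38.p6), and all 10 genes were matched. Each sequence occurs once in mm9, the build of the deposited files, and mm9 positions are given. The ERSE, searched as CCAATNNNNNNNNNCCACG on both strands, was in 5 of the 10 promoters and in 39 of all 32851 promoters (0.119%). These are its 6 matches, written 5′ to 3′ on the strand of the match with both boxes in capitals and positions counted from the RefSeq start. They are shown because this motif was in 5 of the members and in few other promoters. It was searched because the response that raises many ER chaperone genes acts through it, so the contrast is a description only.

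Hspa5, bases -65 to -47: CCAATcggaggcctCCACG
Hsp90b1, bases -212 to -194: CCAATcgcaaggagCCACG
Hsp90b1, bases -107 to -89: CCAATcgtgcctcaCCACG
Calr, bases -162 to -144: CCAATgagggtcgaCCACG
Canx, bases -145 to -127: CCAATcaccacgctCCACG
Pdia6, bases -98 to -80: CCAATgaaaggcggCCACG

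The first match in Hsp90b1 lies on the strand of the gene and the second on the opposite strand, as does the match in Calr. The 9 bases between the boxes differed among all 6 matches. Of the other motifs, ERSE-II (ATTGGNCCACG) was in 0 of the 10 promoters and in 0.0365% of all promoters, and the core TGACGTG of the UPR element was in that of Hspa5 (2.01% of all promoters). The CCAAT box alone was in 8 of 10 (37.4% of all) and the CCACG box alone in 8 of 10 (32.8% of all); both counts include the ERSE matches. The kappaB motif was in the promoter of Serpinh1 (4.51% of all promoters). A match of letters does not show that a factor was bound.

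The whole windows of 3 genes follow, on the strand of each gene and with the matches to ERSE, UPR element core and kappaB in capitals. Hspa5 holds both an ERSE and the UPR element core, Hsp90b1 holds 2 ERSE matches, and Serpinh1 holds a kappaB match and no CCAAT box. Hspa5 lies on the plus strand and the other 2 on the minus strand.

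Hspa5 promoter, chr2:34627360-34627659: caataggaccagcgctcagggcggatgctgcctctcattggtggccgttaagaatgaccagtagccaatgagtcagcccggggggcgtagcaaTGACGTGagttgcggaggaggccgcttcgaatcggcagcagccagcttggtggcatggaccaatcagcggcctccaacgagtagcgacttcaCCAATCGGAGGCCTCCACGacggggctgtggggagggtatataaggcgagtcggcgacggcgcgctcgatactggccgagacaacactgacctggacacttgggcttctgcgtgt
Hsp90b1 promoter, chr10:86168140-86168439: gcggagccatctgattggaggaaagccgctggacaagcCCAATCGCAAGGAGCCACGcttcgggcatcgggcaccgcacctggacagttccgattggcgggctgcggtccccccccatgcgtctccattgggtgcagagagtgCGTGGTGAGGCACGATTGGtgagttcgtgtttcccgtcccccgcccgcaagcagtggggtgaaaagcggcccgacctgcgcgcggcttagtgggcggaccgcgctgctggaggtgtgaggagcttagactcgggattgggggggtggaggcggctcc
Serpinh1 promoter, chr7:106501700-106501999: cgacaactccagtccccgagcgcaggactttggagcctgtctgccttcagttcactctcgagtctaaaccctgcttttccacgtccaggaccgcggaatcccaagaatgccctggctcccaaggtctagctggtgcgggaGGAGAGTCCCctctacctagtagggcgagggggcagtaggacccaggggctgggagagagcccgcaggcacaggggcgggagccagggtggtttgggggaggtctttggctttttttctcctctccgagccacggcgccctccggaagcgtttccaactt

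In untreated MEFs the members spanned a wide range of levels. RPKM values are per length, so levels of different genes can be compared on this scale. Calr was highest at 4604 units, followed by Serpinh1 at 4096 and P4hb at 2964. These 3 lay above 94.6% or more of the coding genes of the background. Hsp90b1 had 1029 units. Hspa5 and Pdia3, at 624 and 623 units, could not be put in order, since their R1 and R2 columns overlapped. Pdia6 (532), Pdia4 (348), Canx (318) and Xbp1 (293) followed without overlap of columns, and Xbp1 lay above 52.9% of the coding genes. R1 and R2 are 2 columns of each library whose content is not given in the sources used here. They are no replicates, and each level is their mean. In the treated libraries the columns of further neighbours in the order overlapped: Hsp90b1 and Hspa5, and Canx and Xbp1, at 1.5 hr, Calr and Serpinh1 at 6 and 24 hr, Pdia3 and Hspa5 at 6 hr, and Canx and Pdia4 at 24 hr.

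**Figure D1:**
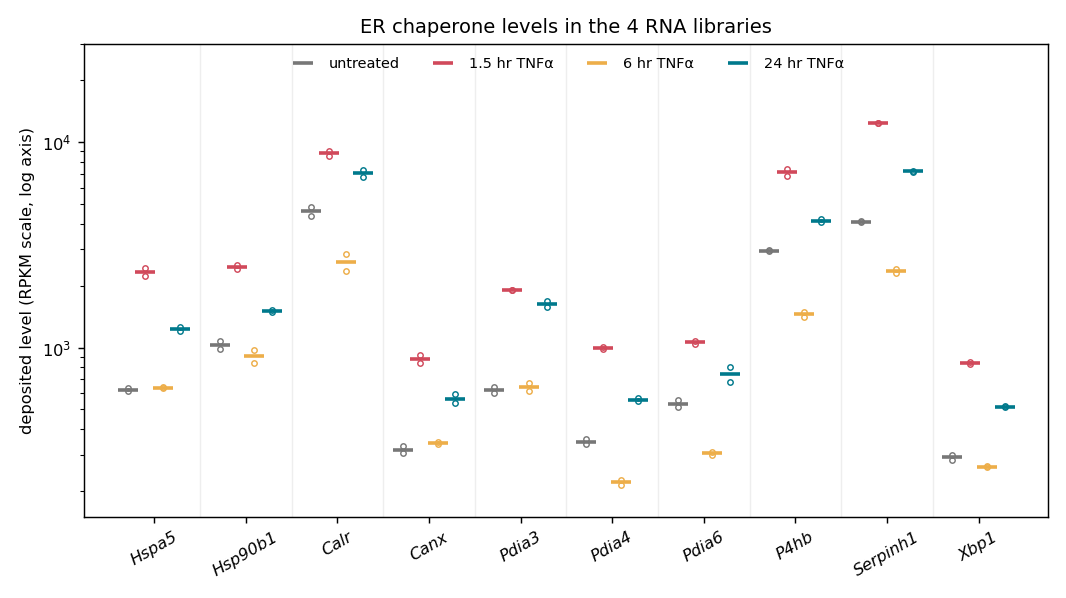
Deposited level of the 10 genes (log axis, RPKM scale of the deposited table) in the untreated library and after 1.5, 6 and 24 hr of TNFα. Bars are the mean of the R1 and R2 columns (open circles) of 1 library, and every gene is highest at 1.5 hr and second highest at 24 hr.

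The labels were checked on genes of other kinds. All 11 TNFα target genes of a list drawn up as a check, among them Nfkbia, Cxcl10 and Saa3, were at least 2-fold higher relative to the median coding gene at each time. Of 10 fibroblast markers, 9 were above 100 units in the untreated library, and the 4 endothelial and 5 epithelial markers summed to at most 5.04 and 50.4 units in any library. Macrophage genes were present: the sum of 7 markers was 3300 units untreated, 16462 at 1.5 hr, 3205 after 6 hr and 8106 at 24 hr, mostly Lyz2 (2257, 14668, 2692 and 7187), and it was highest at 1.5 hr and second at 24 hr, as were the chaperones described next. Of the other markers, Csf1r was at 295, 287, 90.1 and 124 units, Cd68 at 605, 823, 202 and 312, and none of the 7 was at 0. Emr1, Ptprc and Itgam, at 26.3, 13.4 and 41.1 units untreated, stayed below 100 in every library. Cd14 was at 62.6 units untreated and 515 at 1.5 hr. Csf1r and Cd68 were not highest at 1.5 hr with 24 hr second, and Emr1, Ptprc, Itgam and Cd14 were, as were 47.4% of coding genes. Emr1 at 24 hr was close to its untreated level, at 27.3 against 26.3 units. The part of these 7 genes in the chaperone values was not tested. In such bulk RNA a change in the share of a cell type and one in the RNA per cell cannot be told apart. Muscle and neural markers, led by Des and Nes, summed to at most 318 and 1219 units.

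The table gives no reads, but 51.0% to 56.5% of its low values lay within 0.05 of whole multiples of a step that scales with length. If 1 step is 1 read, a member had between 501 (Xbp1, 6 hr) and 32672 reads (Serpinh1, 1.5 hr) per column, and the counting error of the fewest was 4.47%. This covers counting only and not the variation between cultures.

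All 10 genes were highest in the 1.5 hr library and second highest in the 24 hr library. This order was held by 47.4% of the coding genes, and 59.4% were highest at 1.5 hr. At 1.5 hr, 8 of 10 members were at least 2-fold above the untreated library (29.8% of coding genes) and 0 at least 2-fold lower (7.97%). At 6 hr, 0 were 2-fold higher (1.83%) and 1, P4hb, was 2-fold lower (31.5%). At 24 hr, 1 member, Pdia3, was 2-fold higher (16.8%) and 0 were 2-fold lower (12.8%). The median log2 ratio of the members at 1.5, 6 and 24 hr was 1.49, -0.42 and 0.75, while that of all coding genes was 0.44, -0.74 and 0.10.

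The libraries themselves therefore sat at different heights. Summed over coding genes and set against the untreated library, the values at 1.5, 6 and 24 hr came to 1.20, 0.542 and 0.969. The members are given below on the deposited scale and as relative log2 ratios, from which the median of all coding genes at that time was subtracted. On the relative scale, 6 members were at least 2-fold higher at 1.5 hr (15.8% of coding genes), 0 at 6 hr (7.21%) and 1 at 24 hr (14.4%), and 0 were 2-fold lower at any time (17.4%, 3.26% and 15.2%). The members' medians on this scale were 1.05, 0.32 and 0.64 in order of time, so that their direction at 6 hr depended on the scaling. All 10 members were above the median coding gene at 1.5 and 24 hr, and 6 of 10 were above it at all 3 times (33% of coding genes). On this scale 8 of 10 were still highest at 1.5 hr (28.6% of coding genes).

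The ratios also moved with base composition across all genes. The 1483 coding genes with the lowest GC content, below 48.4%, had a median log2 ratio of 1.18 at 1.5 hr and 0.77 at 24 hr, and the 1483 with the highest, above 56.7%, had -0.37 and -0.62. At 6 hr these medians were -0.35 and -0.88. The members ranged from 42.3% GC in Canx to 56.8% in Serpinh1, and 8 of 10 counted as 2-fold higher at 1.5 hr became 2 after the median of genes of like GC content was subtracted within 20 bins. Those 2 were Serpinh1 and Xbp1 (10.8% of coding genes were called so), and at 24 hr Serpinh1 was the 1 member 2-fold higher (10.5%). After GC centring 0 members were 2-fold higher at 6 hr (4.94%), and 0 were 2-fold lower at 1.5 hr (10.5%), 6 hr (2.68%) or 24 hr (8.97%). What part base composition had in the ratios of each gene was not tested, so the GC-centred ratio stands beside each gene below.

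**Figure D2:**
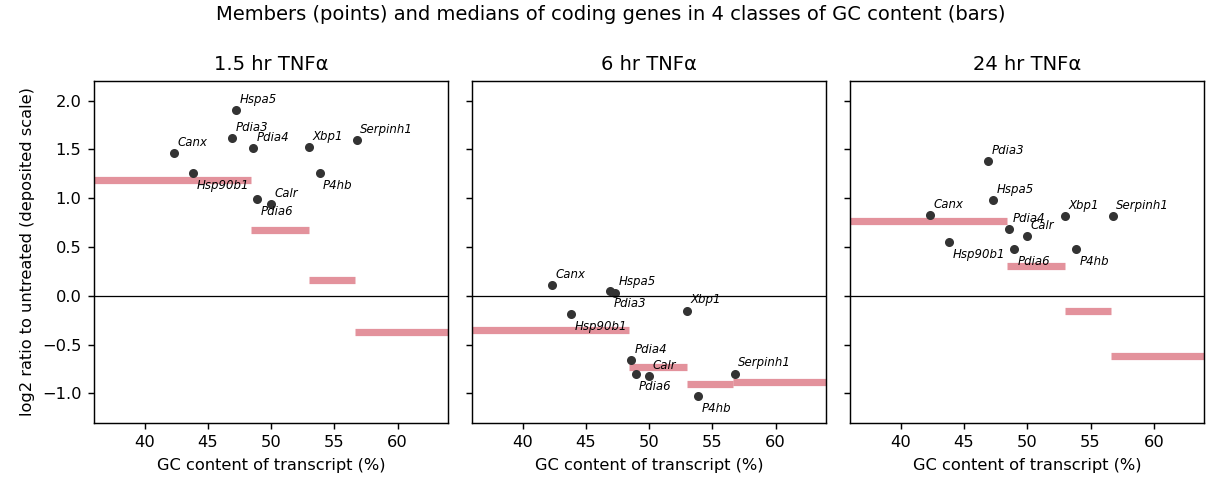
Log2 ratio to untreated on the deposited scale against GC content of the transcript for the 10 genes (points), with the median of coding genes in 4 classes of GC content of nearly equal size (bars, drawn between 36% and 64% GC). At 1.5 hr the bars step down from 1.18 to -0.37, and Serpinh1, Xbp1 and P4hb stand farthest above the bars of their classes.

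Hspa5, the main Hsp70 chaperone of the ER lumen, had the highest ratio of the 10 genes at 1.5 hr on the deposited and relative scales. Its level was 624 units untreated, 2331 at 1.5 hr, 638 after 6 hr and 1232 at 24 hr. In the R1 and R2 columns the untreated values were 613 and 635, and those at 1.5 hr were 2229 and 2434, without overlap. The 1.5 hr level was 3.74-fold higher on the deposited scale and 2.75-fold higher relative to the median coding gene, and 93.6% of coding genes had a lower ratio. At 6 hr it stood at the untreated level (log2 ratio 0.03, relative 0.77), and at 24 hr it was 1.98-fold higher (relative log2 ratio 0.88). The GC-centred log2 ratios were 0.89, 0.56 and 0.36, above 0 at all 3 times. The other RefSeq entry of Hspa5 gave log2 ratios of 1.90, 0.039 and 0.98 in the same order, close to those of the entry used.

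Hsp90b1 encodes the Hsp90 of the ER, which folds integrins and Toll-like receptors among others. Its level was 1029 units untreated, 2461 at 1.5 hr, 905 after 6 hr and 1508 at 24 hr. The 1.5 hr library was highest, 2.39-fold above untreated. In order of time the relative log2 ratios were 0.81, 0.55 and 0.45, above 0 throughout, although the 6 hr ratio was -0.19 as deposited. Hsp90b1 is poor in GC (43.8%), and its GC-centred log2 ratios were -0.060, 0.01 and -0.31, so that its direction at 1.5 and 24 hr reversed on that scale.

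The lectin chaperones calreticulin (Calr), soluble in the lumen, and calnexin (Canx), anchored in the membrane, bind the same kind of sugar. Calr was the most abundant member in the untreated library, with 4604 units untreated, 8816 at 1.5 hr, 2602 after 6 hr and 7032 after 24 hr. Its 1.5 hr level was 1.91-fold higher, just under the 2-fold line and the lowest of the 10 deposited ratios. The 6 hr level was 0.565 times the untreated level, a log2 ratio of -0.82, close to the fall of the median coding gene (relative log2 ratio -0.08). Its GC-centred log2 ratios were 0.17, -0.10 and 0.25.

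Canx had 318 units untreated, 877 at 1.5 hr, 343 after 6 hr and 564 at 24 hr. It was 2.76-fold higher at 1.5 hr, and its relative log2 ratio at 6 hr, 0.85, was the highest of the 10 genes. Its GC-centred log2 ratios were 0.04, 0.18 and -0.19, so its direction at 24 hr reversed on that scale. On the deposited scale the log2 ratios of Canx and Calr were 1.46 and 0.94 at 1.5 hr and 0.11 and -0.82 at 6 hr.

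Among the 4 disulfide isomerases, Pdia3 (ERp57), the partner of both lectins that acts on glycoproteins, had the highest deposited ratios at 1.5 and 24 hr, while after GC centring P4hb was higher at 1.5 hr. Its level was 623 units untreated, 1910 at 1.5 hr, 646 after 6 hr and 1625 at 24 hr. It was 3.06-fold higher at 1.5 hr and still 2.61-fold higher at 24 hr, the only member past 2-fold then. Both columns gave this, with log2 ratios of 1.48 and 1.29 at 24 hr. From 1.5 to 24 hr its log2 level changed by -0.23, against -0.33 to -0.92 for the other 9 genes. Its GC-centred log2 ratios were 0.60, 0.58 and 0.76.

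Pdia4 (ERp72), a member of the family with 3 catalytic domains, had 348 units untreated, 995 at 1.5 hr, 220 after 6 hr and 558 at 24 hr. It was 2.86-fold higher at 1.5 hr and 0.633 times the untreated level at 6 hr. The relative log2 ratios were 1.07, 0.08 and 0.58 and the GC-centred ones 0.58, -0.13 and 0.09, so at 6 hr its sign depended on the scale. Pdia6 (P5), an isomerase that binds BiP, had 532 units untreated, 1059 at 1.5 hr, 306 after 6 hr and 743 at 24 hr. Its fold at 1.5 hr, 1.99, lay just below the threshold, and its 3 log2 ratios (0.99, -0.80 and 0.48) were nearest to those of Calr, at a Euclidean distance of 0.14. Its GC-centred log2 ratios were 0.05, -0.27 and -0.11, so its direction at 24 hr reversed on that scale.

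P4hb is both the founding disulfide isomerase and the β subunit of the prolyl 4-hydroxylase that modifies collagen. It had 2964 units untreated, 7114 at 1.5 hr, 1455 after 6 hr and 4143 at 24 hr. It was 2.40-fold higher at 1.5 hr and 0.491 times the untreated level at 6 hr, the only member past 2-fold lower. The R1 column alone gave a log2 ratio of -0.998 at 6 hr, just short of the threshold, and the R2 column gave -1.06. Relative to the median coding gene its 6 hr log2 ratio was -0.29, the lowest of the 10. The GC-centred log2 ratios were 0.91, -0.15 and 0.53.

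Serpinh1, the collagen chaperone, reached the highest level of any member. It had 4096 units untreated, 12404 at 1.5 hr, 2357 after 6 hr and 7197 at 24 hr, and was 3.03-fold higher at 1.5 hr. Its 3 RefSeq entries gave log2 ratios from 1.59 to 1.60 at 1.5 hr. With 56.8% GC it is the member richest in GC, and the median of genes of such composition was below 0 at 1.5 and 24 hr. Its GC-centred log2 ratios, 1.75 at 1.5 hr and 1.26 at 24 hr, were the highest of the 10, above 97.7% and 94.1% of coding genes. At 6 hr the log2 ratio was -0.80 as deposited, -0.06 relative to the median coding gene and 0.09 after GC centring.

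Xbp1 encodes a transcription factor of the unfolded protein response, made active by an unusual splicing of its mRNA in the cytoplasm. The table holds 1 entry for it and does not separate spliced from unspliced mRNA. It had 293 units untreated, 841 at 1.5 hr, 263 after 6 hr and 515 at 24 hr, the lowest level of the 10 genes in every library but that of 6 hr. It was 2.87-fold higher at 1.5 hr, with a relative log2 ratio of 1.08, and after GC centring it lay above 91.4% of coding genes. On the relative scale it was above the median coding gene at all times (0.59 at 6 hr and 0.71 at 24 hr), and the GC-centred values then were 0.65 and 0.76. Hspa5, Pdia3, Serpinh1 and Xbp1 were the 4 members above 0 at all 3 times after GC centring (30.5% of coding genes).

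**Figure D3:**
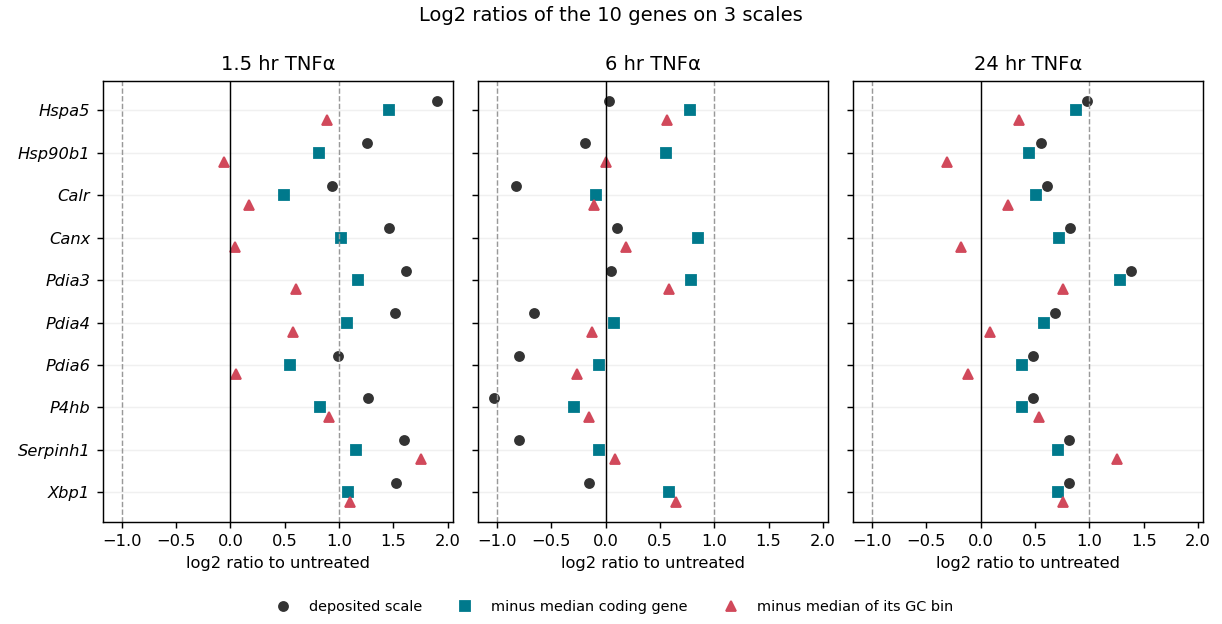
Log2 ratio to the untreated library of the 10 genes at 1.5, 6 and 24 hr on the deposited scale (circles), minus the median coding gene (squares) and minus the median of genes of like GC content (triangles). Dashed lines mark 2-fold; Hsp90b1 and Canx lie near or below 0 on the third scale at 1.5 hr, while Serpinh1 reaches 1.75.

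On the deposited scale all members shared the 1.5 hr library as highest and the 24 hr library as second. Relative to the median coding gene, Calr (0.51 against 0.49) and Pdia3 (1.28 against 1.17) were higher at 24 than at 1.5 hr. As deposited, Hspa5, Canx and Pdia3 were lowest untreated, and the other 7 were lowest at 6 hr. For Pdia3 the columns of the untreated and 6 hr libraries overlapped. By the distance between their 3 deposited log2 ratios, Calr and Pdia6 were nearest (0.14), then Pdia4 and Serpinh1 (0.21) and Canx and Xbp1 (0.27). Pdia3 was the farthest member for 6 of the others, P4hb most of all (1.45). The coding genes nearest to the members' median were Sqle (0.076), Emp1 (0.076), Tsr1 (0.077), Fhl1 (0.083) and Myof (0.085). As many as 1435 coding genes lay no farther from that median than the farthest member did.

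The 5 members with an ERSE in the window and the other 5 overlapped. The median relative log2 ratios with the motif were 0.81, 0.55 and 0.51 in order of time, and those of the other 5 were 1.08, 0.08 and 0.71. Hspa5, which has an ERSE, had the highest relative log2 ratio of the 10 at 1.5 hr (1.46), and Calr, which also has one, the lowest (0.49). After GC centring the medians were 0.05, 0.01 and -0.11 with the motif and 0.91, 0.09 and 0.76 without it. Beyond the members, the genes with an ERSE that passed the level filter were Creld2, Hnrnpa3, Syvn1 and Zfp57, with a median relative log2 ratio of -0.07 at 1.5 hr. Syvn1, an ER ubiquitin ligase, was at -1.33 there, and Creld2, an ER protein induced by stress, at 0.24.

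H3K4me3 covered the start of all 10 members in untreated MEFs, where 89.1% of 5928 coding genes had a peak within 1 kb. The median length of the members' peaks was 5639 bp and that of coding genes with a peak 3746 bp, and the median tags were 2124 and 1337. Tags per kb were closer, 366 and 352. All had an FDR of 0.03%, and their summits lay 197 to 821 bp downstream of the start.

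The peak of Hspa5 (chr2:34625158-34633925) was the longest at 8768 bp, with 3305 tags and a fold enrichment of 64.5. It ran past the end of the gene, which is 4562 bp long. The peak of Hsp90b1 (chr10:86161625-86170097) had 8473 bp and a fold enrichment of 52.9. These 2 were longer than 97.7% and 97.3% of the peaks at coding genes. That of Calr (chr8:87366669-87372349) had 5681 bp and a fold of 43.4. That of Canx (chr11:50135032-50140771) had 5740 bp and a fold of 55.5. Both lectin genes thus carried peaks of nearly the same length.

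Among the isomerases, Pdia3 (chr2:121237608-121243204) had the lowest fold enrichment of the 10, 25.4, above 4.94% of coding genes with a peak. Pdia4 (chr6:47760055-47764509) had 54.1, Pdia6 (chr12:17272279-17276368) 80.8 and P4hb (chr11:120431146-120436451) 66.4. The peak of Pdia6 was the shortest, 4090 bp. Serpinh1 (chr7:106495081-106503070) had a peak of 7990 bp with the most tags, 3560. Xbp1 (chr11:5419548-5424810) had the highest fold enrichment, 94.4. The mark was not profiled after TNFα. Pdia3, with the lowest fold enrichment, was the member with the highest log2 ratio at 24 hr on the deposited and relative scales (Serpinh1 after GC centring), and Xbp1, with the highest, had the lowest untreated level.

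**Figure D4:**
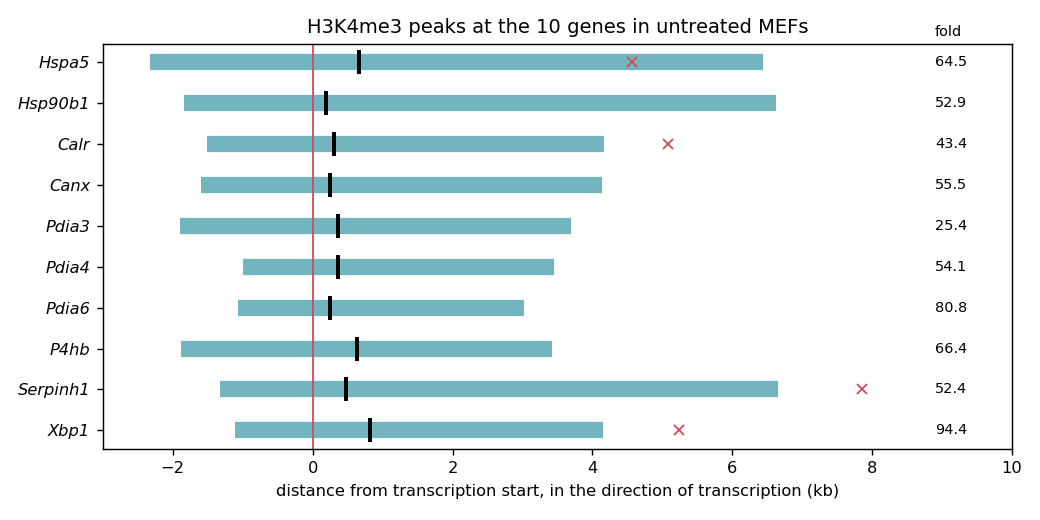
Extent of the H3K4me3 peak at each gene in untreated MEFs (bars), its summit (black ticks) and the end of genes shorter than 8.5 kb (crosses), in kb from the start, with the fold enrichment at the right. All bars cross the start, and those of Hspa5, Hsp90b1 and Serpinh1 reach beyond 6 kb downstream.

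The other genes of the secretory pathway lay on both sides of the median coding gene. Of 84 genes in 7 lists that passed the level filter, 23 were at least 2-fold higher and 4 lower on the relative scale at 1.5 hr (15.8% and 17.4% of coding genes), 9 and 5 at 6 hr (7.21% and 3.26%) and 18 and 7 at 24 hr (14.4% and 15.2%). Their median relative log2 ratio was 0.36, 0.09 and 0.20, below that of the 10 members at each time. After GC centring 7 were higher (8.43%) and 5 lower (6.02%) at 1.5 hr, both shares below those of all coding genes (10.8% and 10.5%). The lists were drawn up with earlier results of these data known, so their counts are descriptions.

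Translocation into the ER had the highest relative median of the 7 lists at 1.5 and 6 hr. After GC centring the list of UPR sensors and transducers was highest at 1.5 hr. Of the 17 translocation genes, 9 were 2-fold higher (15.8% of coding genes) and 0 lower (17.4%) at 1.5 hr on the relative scale. Their median relative log2 ratio was 1.04, 0.46 and 0.64 at 1.5, 6 and 24 hr (0.39, 0.15 and 0.45 after GC centring). After GC centring 1 of 16 was 2-fold higher at 1.5 hr (10.8%) and 1, Sec62 (-1.88), lower (10.5%). Spcs1, a subunit of the signal peptidase, was at 2.10, 1.14 and 1.53. Sec61a1, the channel itself, was at -0.07, -1.03 and -0.36. Sec62, which assists the channel, was at -0.91 at 1.5 hr and 1.03 at 6 hr, and Srp72 of the signal recognition particle was at 1.69 at 6 hr. The R1 and R2 columns differed for both at 6 hr, with deposited log2 ratios of 0.03 and 0.48 for Sec62 and 0.49 and 1.27 for Srp72.

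Of 9 disulfide genes beyond the members, 3 were higher (15.8% of coding genes) and 0 lower (17.4%) at 1.5 hr on the relative scale. Their median was 0.93, 0.29 and 0.74 in order of time. After GC centring 2 were higher (10.8%) and 1 lower (10.5%) at 1.5 hr, and the medians were 0.32, 0.12 and 0.19. Ero1l, the oxidase that recharges disulfide isomerases, had relative log2 ratios of 1.62, 1.21 and 1.55 from a low untreated level of 41.4 units. Txndc5, another isomerase, was at 1.57 at 1.5 hr, and Prdx4, a peroxiredoxin of the ER, at 1.34. Vkorc1, which recycles vitamin K, was at -0.76, -1.62 and -0.87, and Erp29 was at -1.18 at 6 hr.

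The partners of Hspa5 lay nearer to the median coding gene. Of 10 co-chaperones and exchange factors, 1 was higher and 1 lower at 1.5 hr, with a median of 0.22, 0.05 and 0.15 (0.07, 0.14 and 0.16 after GC centring, with 0 higher and 1 lower at 1.5 hr). Dnajc10, a J protein that reduces disulfides, was at 1.25, 0.90 and 1.06. Sil1, a nucleotide exchange factor for BiP, was at -1.51, -0.56 and -1.87, from 675 units untreated to 323 at 1.5 hr and 199 at 24 hr. Cnpy2 was the lowest of this list at 6 hr (-0.92).

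Of 13 genes of the lectin cycle and glycan processing, 3 were higher (15.8% of coding genes) and 0 lower (17.4%) at 1.5 hr. Their median was 0.32, -0.10 and 0.20. After GC centring 1 was higher (10.8%) and 1, Dad1 (-1.23), lower (10.5%) at 1.5 hr. Rpn1, Lman1 and Stt3a were at 1.38, 1.11 and 1.05 at 1.5 hr on the relative scale and at 1.17, 0.54 and 0.07 after GC centring, and Prkcsh, the β subunit of glucosidase II, was at -0.92 on the relative scale. Rpn1, a subunit of the oligosaccharyltransferase, was also the highest at 24 hr (1.01), Lman1 at 6 hr (0.63) and Dad1 the lowest at 6 hr (-0.62). Of 13 genes of ER-associated degradation, 3 were higher (15.8%) and 2 lower (17.4%) at 1.5 hr, with a median of 0.16, 0.08 and 0.19. After GC centring 1 was higher (10.8%) and 1 lower (10.5%) at 1.5 hr. The ubiquitin-conjugating enzymes Ube2g2 and Ube2j1 were at 1.74 and 1.59, and the ER protein Selk at 1.17. The lectin Os9 was at -1.48, -0.95 and -1.51, and Syvn1 was again at -1.29 at 24 hr.

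The listed sensors and transducers of the unfolded protein response went in both directions. The sensors Ern1, Eif2ak3 and Atf6 did not pass the level filter and are not in the counts. Their relative log2 ratios at 1.5 hr were -0.44, 0.16 and 1.28. Of the 8 genes that passed, 2 were higher (15.8% of coding genes) and 1 lower (17.4%) at 1.5 hr on the relative scale. Their relative median was 0.18, 0.04 and 0.07. After GC centring 2 were higher (10.8%) and 0 lower (10.5%) at 1.5 hr. The medians were then 0.53, 0.13 and 0.41, so the place of this list among the 7 depended on the scale. Nfe2l2, an activator of antioxidant genes, was at 1.83, 1.01 and 1.26, and Ppp1r15a, which restores translation after stress, at 1.03, 0.11 and 1.34. Atf4, the factor of the integrated stress response, was at 0.83, 0.12 and 0.97, while its target Ddit3 (CHOP) was at -1.06, -0.82 and -1.68. The level of Ddit3 was 3172 units untreated, 2072 at 1.5 hr, 1076 after 6 hr and 1060 at 24 hr, lower in each TNFα library than in the untreated one.

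The collagen chains, the clients of Serpinh1, lay in their median below the median coding gene. The 5 fibrillar collagen chains had a median relative log2 ratio of -0.55, -0.23 and -1.24, with 0 higher and 2 lower at 1.5 hr (17.4% of coding genes were lower) and 3 lower at 24 hr (15.2%). After GC centring 0 were lower at 1.5 hr (10.5%) and 3 at 24 hr (8.97%). Col1a1 went from 44002 units untreated to 23778 at 1.5 hr, 20213 after 6 hr and 12173 at 24 hr, and Col5a1 had relative log2 ratios of -1.22, -0.43 and -1.75. Col5a2 was the highest chain at each time, at -0.02, 0.26 and -0.51. Col1a1 after GC centring was at -0.55 at 1.5 hr and -1.17 at 24 hr, where Serpinh1 was at 1.75 and 1.26. Of the 14 other genes of collagen folding, 2 were higher (15.8% of coding genes) and 0 lower (17.4%) at 1.5 hr. At 24 hr 2 were higher (14.4%) and 3 lower (15.2%). Their median was 0.25, -0.18 and -0.04 in order of time. After GC centring 0 were higher (10.8% and 10.5%) and 0 lower (10.5% and 8.97%) at 1.5 and 24 hr. The prolyl isomerase Fkbp7 was at 1.92, 1.30 and 1.36 and the lysyl hydroxylase Plod2 at 1.03, 1.01 and 1.70 on the relative scale, with GC-centred values at 1.5 hr of 0.94 and 0.16. Fkbp10 was at -0.92 and -1.16 at 1.5 and 24 hr, P4ha3, an α subunit that pairs with P4hb, was at -1.31 at 6 hr and -1.40 at 24 hr, Plod1 was at -1.10 at 24 hr and Ppib at -1.01 at 6 hr.

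**Figure D5:**
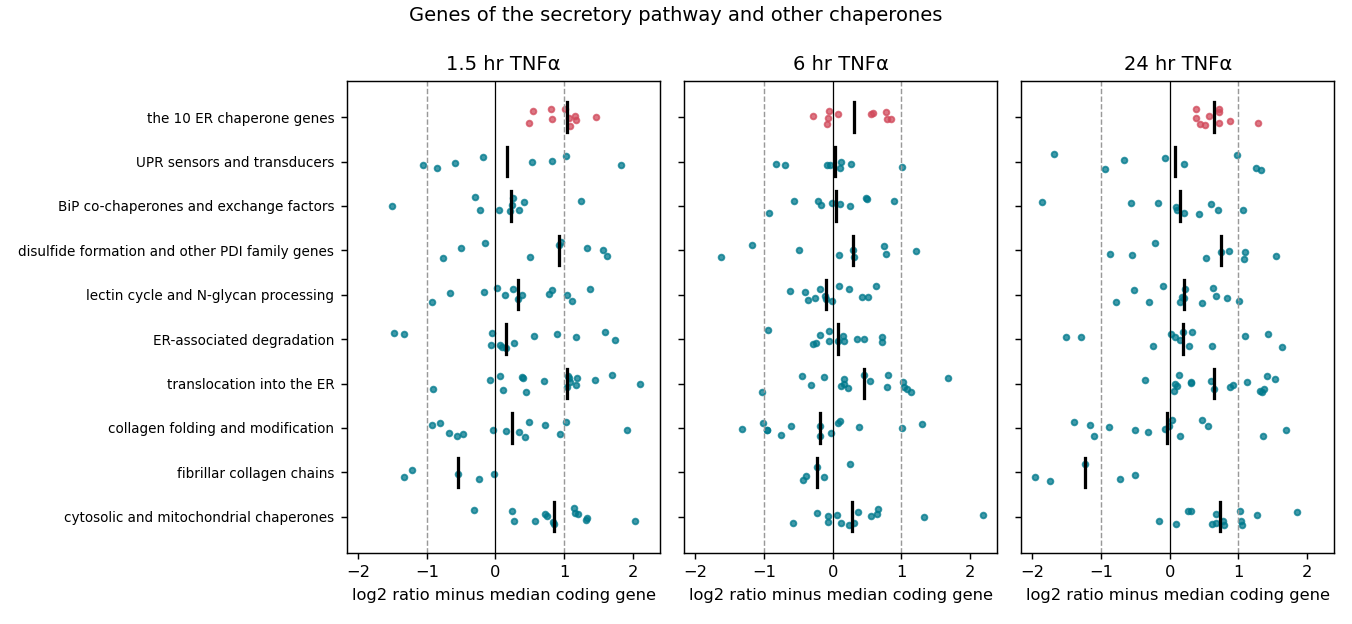
Relative log2 ratio (minus the median coding gene) of the 10 genes and of the genes of 9 other lists that passed the level filter, at 1.5, 6 and 24 hr. Each point is a gene, spread vertically at random, black bars are medians and dashed lines mark 2-fold; the medians of the 10 genes and of translocation into the ER lie at 1.05 and 1.04 at 1.5 hr, and the fibrillar collagens at -0.55.

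Chaperones outside the ER had a median near that of the members. Of 14 cytosolic and mitochondrial chaperones, 6 were higher (15.8% of coding genes) and 0 lower (17.4%) at 1.5 hr. Their median relative log2 ratio was 0.85, 0.28 and 0.73. After GC centring it was 0.56, 0.16 and 0.46, with 3 higher (10.8%) and 1 lower (10.5%) at 1.5 hr. Cct2, a subunit of the cytosolic chaperonin, was at 2.03, 1.33 and 1.85, and Hspa8, the constitutive cytosolic Hsp70, was at 1.16, -0.06 and 1.05. Hsp90aa1, the inducible cytosolic Hsp90, was at -0.31, 2.19 and 0.09, highest at 6 hr, where its ER relative Hsp90b1 was at 0.55. Hspa9 was the lowest of this list at 24 hr (-0.15) and Dnajb1 at 6 hr (-0.58).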

How the data were processed

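RNA from MEFs was sequenced at 4 times with 1 library each. Per the labels and methods, polyA RNA was made into paired-end directional libraries, which the authors aligned to mm9 by TopHat. A script of the authors turned the alignments into RPKM for each RefSeq transcript, deposited as 2 columns (R1 and R2) a library. How shared, overlapping or antisense reads were counted is not given in the sources used here. The columns were tied to times through the list of libraries in the study's supplement. The deposited RPKM have a scale of their own and were compared only with each other. For H3K4me3 Bowtie alignments and MACS peak calls were made by the authors on 1 library. The deposited list gives tag counts, a score of -10 times the log10 of the p-value, fold enrichment as a ratio, the FDR in percent and the average tag signal per length.

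R1 and R2 were averaged, and for each of 20275 coding genes the entry with the highest mean was kept. Genes with a mean above 100 units (6050) were the background. Ratios to the untreated library were taken as log2 without a pseudocount, and a gene was called at 2-fold, which follows the rule of the study. Relative values subtract the median coding gene, and GC-centred values the median within 20 bins of the GC content of the longest GENCODE vM1 coding transcript (known for 98.0% of genes). Peaks were matched within 1 kb of GENCODE starts in mm9, and promoters came from RefSeq (GRCm38.p6). With 1 library per time no test, interval or block was possible. Only the ratios, scalings and 2-fold calls were tried on simulated libraries. These held changes larger than 2-fold, and a GC slope in the 6 hr library alone. In the data the medians fell more steeply with GC content at 1.5 and 24 hr than at 6 hr. Peak matching, motif search and read estimates were not simulated. The members, lists and motifs were chosen with earlier results of these data known. Named were all members, the highest and lowest gene of each list at each time and others past 2-fold on the relative scale (those not printed are in the counts), and the 5 coding genes nearest to the members' median. Python 3.11.15, numpy 2.4.6, pandas 2.3.3 and matplotlib 3.10.9 were used.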

Additional observations from a re-analysis of the deposited data

Results flagged for a closer look

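In 7 members both columns were higher at 1.5 hr and lower at 6 hr than in the untreated library as deposited. Over all coding genes, 65.2% were above the untreated library at 1.5 hr and 12.5% at 6 hr. How many coding genes went higher and then lower was not counted. Their log2 ratios at 1.5 hr were between 0.94 and 1.60. At 6 hr they were -0.19 for Hsp90b1, -0.82 for Calr, -0.66 for Pdia4, -0.80 for Pdia6, -1.03 for P4hb, -0.80 for Serpinh1 and -0.15 for Xbp1. The difference between the times was not tested, since each has 1 library, and both share the untreated library. The median coding gene was at -0.74 at 6 hr, and relative to it Hsp90b1 (0.55), Pdia4 (0.08) and Xbp1 (0.59) lay above 0. The other 4, Calr (-0.08), Pdia6 (-0.06), P4hb (-0.29) and Serpinh1 (-0.06), stayed below it.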

How the results depend on the processing

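No paired analysis was possible because the labels give 1 library per time and no replicate numbers, and for the same reason no library could be left out of a comparison. Of 147 summary values under alternatives, 97 stayed close to the value as reported, though not always equal to it. Close means within 1.5 times for a count, and for a log2 ratio within the larger shift seen with R1 or R2 alone. By this rule 6 members higher at 1.5 hr with a median of ratios (15.8% of coding genes) counted as close to 8. The count of members 2-fold higher at 1.5 hr moved from 8 to 2 after GC centring (10.8% of coding genes) and to 3 at a 3-fold threshold (12.4%). At 24 hr the count of 1 became 2 with scaling to the sum (17.9%), 7 at a 1.5-fold threshold (31.0%) and 0 at 3-fold (5.21%). The 1 member lower at 6 hr became 0 under every other scaling (1.64% to 3.27%), at 3-fold (5.92%) and in R1 alone (29.9%). It became 5 at 1.5-fold, where 61.1% of coding genes were lower. The members' median log2 ratio at 1.5 hr (1.49 as deposited) was 1.05 with a median of ratios, 1.22 with the sum, 1.06 with a trimmed mean, 0.59 after GC centring and 1.46 with a pseudocount of 10. At 24 hr (0.75) it was 0.64, 0.79, 0.65 and 0.30 under these 4 scalings, and at 6 hr (-0.42) it reversed to 0.32, 0.46, 0.31 and 0.045. GC centring turned Hsp90b1 at 1.5 hr from 1.26 to -0.060, and at 24 hr Hsp90b1 from 0.55 to -0.31, Canx from 0.83 to -0.19 and Pdia6 from 0.48 to -0.11. These shifts follow from the scalings themselves, and which scaling is right was not tested. Of 160 single ratios at 1.5 and 24 hr under alternatives 156 stayed above 0, these 4 being the exceptions, and at 6 hr 38 of 80 were above 0.

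Among the 84 other secretory genes, 33 were higher and 2 lower at 1.5 hr as deposited. These counts became 7 and 5 after GC centring (10.8% and 10.5% of coding genes). They were 52 and 4 at 1.5-fold (44.6% and 16.6%) and 15 and 0 at 3-fold (12.4% and 2.05%). Under a median of ratios and a trimmed mean 4 were lower (17.4% and 17.0%). At 6 hr the 0 higher became 9, 10, 9 and 2 under the 4 scalings (7.21%, 9.55%, 7.12% and 4.94% of coding genes). The 0 became 1 at 1.5-fold (3.55%) and in R2 alone (1.77%). The 21 lower became 5, 3, 5 and 3 under the scalings (3.26%, 1.64%, 3.27% and 2.68%), 49 at 1.5-fold (61.1%) and 9 at 3-fold (5.92%). At 24 hr the 20 higher became 6 after GC centring (10.5%), 33 at 1.5-fold (31.0%) and 4 at 3-fold (5.21%). The 6 lower became 11 and 1 at these thresholds (24.2% and 3.72%). All 10 members kept a peak when it had to cover the start, and 8 did among peaks at or above the median fold enrichment. The share of coding genes called moved beyond 1.5 times under some filters and thresholds, and 40 of 72 such shares did not. The fewest estimated reads behind a member (501) were in the 6 hr library.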
